A study of Mus musculus with 4 samples.

Results

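The genes described here are 10 genes of hyaluronan and of the proteoglycans of the pericellular matrix and cell surface, out of 12393 genes with a named probe set on the array. They were chosen by function and with earlier results of the same arrays in view, Vcan for its fall. Every probe set that the platform annotation assigns to 1 of their symbols alone was taken, which gave 21 probe sets. The matrix core proteins are Vcan (versican), Dcn (decorin), Bgn (biglycan), Lum (lumican) and Hspg2 (perlecan), and the cell-surface core proteins are Gpc1 (glypican-1), Sdc1 (syndecan-1) and Sdc4 (syndecan-4). Has2 encodes a hyaluronan synthase and Cd44 the main cell-surface receptor for hyaluronan. Because the contrast between the populations took part in the choice, the values of these genes in that contrast are a description, and no p-value is given for them.

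RNA was measured on Affymetrix Mouse 430A 2.0 arrays in NF639 cells, a mouse mammary tumour line from a mouse carrying an ErbB2 (neu) transgene under the mouse mammary tumour virus promoter. The original population and a pool of NF639 cells resistant to the green tea polyphenol epigallocatechin gallate (EGCG) had 2 arrays each, numbered 1 and 2 by their replicate labels. All 4 arrays thus come from 1 cell line, the resistant cells are a pool and not a clone, and the labels do not say whether EGCG was present at harvest. The RNA came from 2 independent experiments, but the labels do not tie an array number to an experiment, so the spread between arrays, on which every error and p-value rests, may be in part technical.

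Proteoglycans are core proteins that carry long sulfated glycosaminoglycan chains, either chondroitin and dermatan sulfate, as on versican, decorin and biglycan, or heparan sulfate, as on perlecan, glypicans and most chains of syndecans. Hyaluronan is a glycosaminoglycan without a core protein, which is spun out at the plasma membrane by the Has enzymes. It binds versican in the matrix and CD44 on the cell, and together they form a hydrated coat around many mesenchymal and tumour cells.

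The values are MAS5 signals, a linear intensity per probe set in arbitrary units, which the authors had scaled so that the trimmed mean was 500.2 on each array. The median signal per array lay between 114 and 135.2. The 7 probe sets of the bacterial controls spiked into the hybridisation (BioB, BioC, BioDn) were brighter on the array numbered 2 in both populations, by 1.39 to 2.11 times in the original and 1.48 to 2.29 times in the resistant population. The array original 2 stood apart in its 18S ribosomal RNA probe set, at 4005.3 against 346.7 to 624.3 on the others, and in its poly-A spikes, with a median of 219.6 against 111.0 to 120.8. Of 11 markers of luminal mammary epithelium only Gata3 passed the filter on dim probe sets. Gata3 had 123.3 and 82.1 in the original population, against 212.9 and 185.9 in the resistant pool. It was thus higher without overlap, but did not pass (limma adjusted p = 0.463). The keratin and adhesion genes that define that cell type were at the low end, with Krt18 at 7.2 to 25.5, Epcam at 1.4 to 6.7 and Cdh1 at 6.7 to 15.3 over the 4 arrays. Krt8 had signals of 27.5 to 62.9 and Erbb2 of 280.7 to 326.2. The defining epithelial markers were thus dim in both populations of this line, which the labels call a breast cancer cell line.

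Differences below are resistant minus original on the scale log2(signal + 3), with the standard error (SE) of a limma fit over 13576 probe sets whose mean signal reached 51.9, the 40th percentile. Such a difference understates the change of a dim gene. A gene stands for its brightest tested probe set. Of the 10 genes 9 had a tested probe set, 18 probe sets in all, while the only probe set of Lum and 1 each of Vcan and Bgn were too dim. The fit called 1 of the 9 genes at an adjusted p under 0.05, Vcan, against 0.319% of all 7514 tested genes, and 1 of the 18 probe sets, against 0.228% of all tested ones. The arrays of the populations did not overlap for 4 of the 9 genes, against 37.2% of all tested genes. Resistant arrays were higher for Has2 and Sdc1 (19.9% of all tested genes) and lower for Vcan and Dcn (17.3%). Since the genes were chosen with this contrast known, nothing is read from these shares. The plot of signals by array shows all 21 probe sets.

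**Figure D1:**
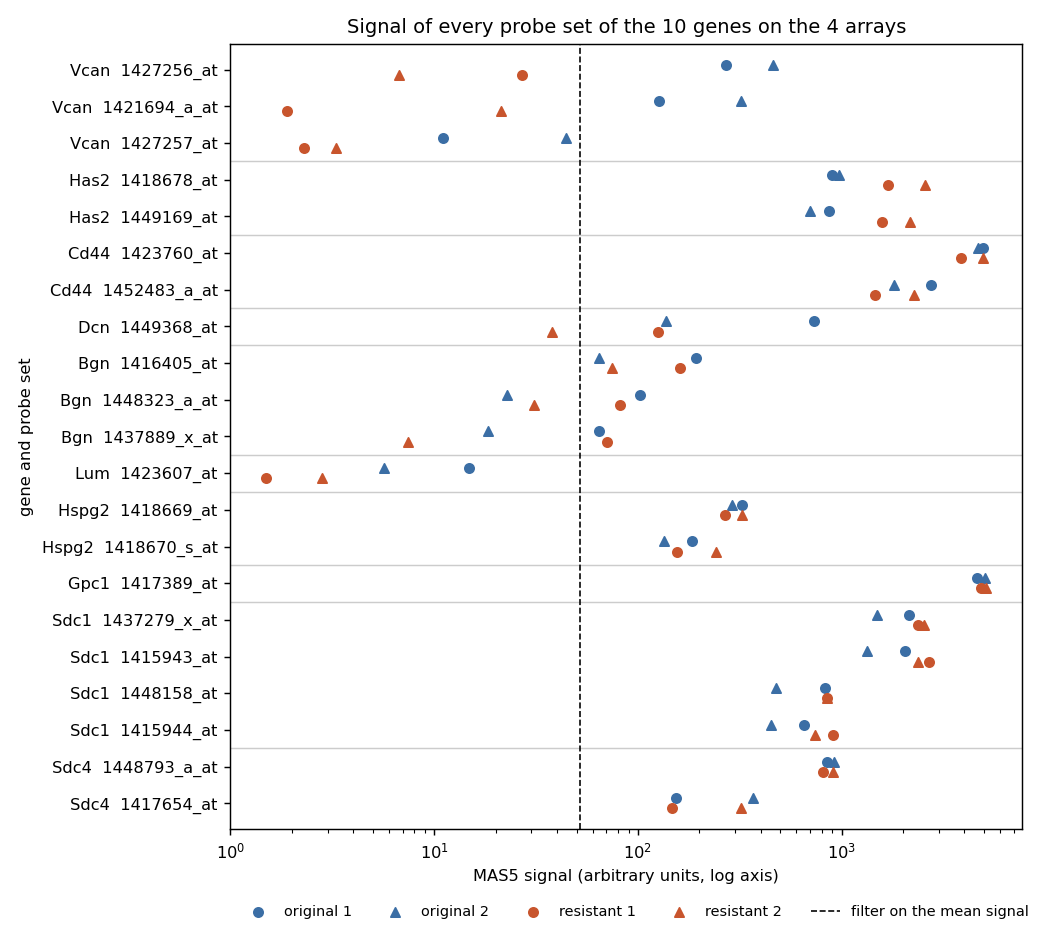
MAS5 signal (log axis, arbitrary units) of the 21 probe sets of the 10 genes, 1 point per array, with the original population in blue, the resistant pool in orange, circles for array 1 and triangles for array 2. The 3 probe sets of Vcan lie far to the left in the resistant pool, the probe sets of Has2 and Sdc1 lie to the right of the original arrays, and the dashed line marks the filter at a mean signal of 51.9.

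On this scale, with 3 added to each signal, Vcan had the lowest fitted difference of all 7514 tested genes. With 16 or 64 added in place of 3, the difference of Vcan was -3.56 or -2.38. Its rank was not taken at those settings, so the rank holds for this scale only. The brightest Vcan probe set, 1427256_at, read 270.1 and 457.9 on the original arrays, against 26.9 and 6.7 on the resistant arrays. Both resistant values lie under the filter, so this probe set was tested only because of its signal in the original population. The means were 364.0 ± 133 and 16.8 ± 14.3 (SD, n = 2 per group), a ratio of 21.7 of original over resistant, and the log2 difference was -4.38 ± 0.545 (SE). It was -3.19 between the arrays numbered 1 and -5.57 between those numbered 2. In bulk RNA, fewer cells that express a gene and less of its RNA per cell cannot be told apart.

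The other Vcan probe sets gave the same order of the arrays between populations. The probe set 1421694_a_at, whose suffix marks probes shared by alternative transcripts of a gene, had 127.2 and 321.1 in the original population, against 1.9 and 21.3 in the resistant pool, a log2 difference of -4.24 ± 0.751 (SE), and it was not called. Both of its resistant values also lie under the filter, so it too was tested only because of its signal in the original population. The dim 1427257_at had 11 and 44.5 against 2.3 and 3.3. No probe set of Vcan thus had a resistant array as high as its lowest original array. Within the resistant pool the order differed between probe sets, with array 1 higher than array 2 at 1427256_at and lower at the others, at signals where MAS5 values are least precise. The call of Vcan ended with quantile normalisation, without the filter on dim probe sets and without a variance trend. With a filter at the 60th percentile Vcan was not measured. With a pseudocount of 64 the log2 difference was -2.38. With 1 array left out it was -4.76 without original 1, -4.00 without original 2, -5.19 without resistant 1 and -3.57 without resistant 2.

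Versican transcripts start from a promoter whose window in the RefSeq table (build GRCm38.p6, 250 bases before the start to 50 after it) lies at chr13:89742463-89742762 on the minus strand. It is shown because Vcan is the gene with the widest difference here, 5′ to 3′ on the gene's strand, with capitals for the motifs found in it.
Vcan: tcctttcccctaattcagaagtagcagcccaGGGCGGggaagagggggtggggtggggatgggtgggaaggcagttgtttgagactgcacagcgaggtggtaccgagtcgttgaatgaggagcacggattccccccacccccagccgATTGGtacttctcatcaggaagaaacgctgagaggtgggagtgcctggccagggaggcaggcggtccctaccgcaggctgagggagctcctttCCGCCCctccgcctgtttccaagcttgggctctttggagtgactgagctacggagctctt
The motifs searched, on both strands, were the TATA box spelled TATAAA, the box spelled CCAAT, the GC box spelled GGGCGG, the AP-1 site spelled TGANTCA, a TCF-type core spelled CTTTGA and an E-box spelled CACGTG. No matches overlap in this window. The window holds GGGCGG 219 bases before the start and its complement 10 bases before it, and the complement of CCAAT 103 bases before it. GGGCGG occurs in 35.7% of all 32851 windows and CCAAT in 37.4%. TATAAA (13.6% of windows), TGANTCA (7.81%), CTTTGA (16%) and CACGTG (7.15%) have no match in the 300 bases. Its GC content is 61.0%, against a median of 52.7% over all windows. A match is a stretch of letters and not a measured binding site.

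The genes whose profile over the 4 arrays was most like that of Vcan were found by the Euclidean distance between centred log2(signal + 3) values. The closest 5 were Abcb1b, a multidrug efflux transporter, at a distance of 0.71, Atp1b1, the beta-1 subunit of the sodium-potassium ATPase, at 1.04, Blnk, a B-cell adaptor protein, at 1.13, Ptgis, the prostacyclin synthase, at 1.6, and Oas1a, an interferon-induced oligoadenylate synthetase, at 1.61. Abcb1b read 166.7 and 151.3 on the original arrays, against 14.9 and 2.2 on the resistant arrays. Atp1b1 was the bright gene among them, with 1842.9 and 2634.7 against 196.7 and 137.3. The resistant signals of Abcb1b, Blnk, Ptgis and Oas1a ran from 2.2 to 27.8, under the filter, as those of Vcan did. Among the other tested genes described here the closest was Dcn, at a distance of 3.15, and the farthest was Has2, at 5.77. These distances rest on 4 arrays and carry no test.

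Has2, the synthase that makes hyaluronan in most mesenchymal cells, was higher on both resistant arrays at both of its probe sets. The probe set 1418678_at had 897.8 and 973.5 in the original population, against 1680.3 and 2560.8 in the resistant pool, with means of 935.6 ± 53.5 and 2121 ± 623 (SD, n = 2 per group). The second, 1449169_at, had 868.3 and 702.1 against 1580.1 and 2177.3. The lowest resistant signal was thus well above the highest original one at each probe set, and the ratio of the means was 2.27 and 2.39. The log2 differences were 1.15 ± 0.215 (SE) and 1.24 ± 0.208 (SE), and the first was 0.90 between the arrays numbered 1 and 1.39 between those numbered 2. The fit of all 4 arrays, with no term for the array number, did not call Has2. With 1 array left out the log2 difference of the first probe set was 1.09 without original 1, 1.21 without original 2, 1.45 without resistant 1 and 0.84 without resistant 2.

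The other hyaluronan synthases were dim on all arrays, with Has1 at 13.9 to 46.6 and Has3 at 1.2 to 2.1, so that Has2 was the only synthase of the 3 with a tested probe set. Ugdh, which makes the UDP-glucuronic acid that hyaluronan and other chains are built from, had 2527.3 and 2636.4 in the original population, against 1902.2 and 2452.1 in the resistant pool, a log2 difference of -0.26 ± 0.179 (SE) that did not pass. The arrays of Ugdh did not overlap, and its direction was the opposite of that of Has2.

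Cd44, the hyaluronan receptor, overlapped between the populations at both probe sets. Its brighter probe set, 1423760_at, had 4952.9 and 4646.1 in the original population, against 3839 and 4957.8 in the resistant pool, a log2 difference of -0.14 ± 0.179 (SE). The probe set 1452483_a_at had 2750.7 and 1805.5 against 1459.3 and 2272.9. At both probe sets resistant 1 was the lowest array, and the sign of the difference turned with the array number, at -0.37 and 0.09 for the brighter and -0.91 and 0.33 for the other. The Cd44 signals are therefore not separated between the populations beyond the spread of the arrays. Probe sets on this array were not assigned here to the variant exons of Cd44, so the values say nothing of its splice forms.

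**Figure D2:**
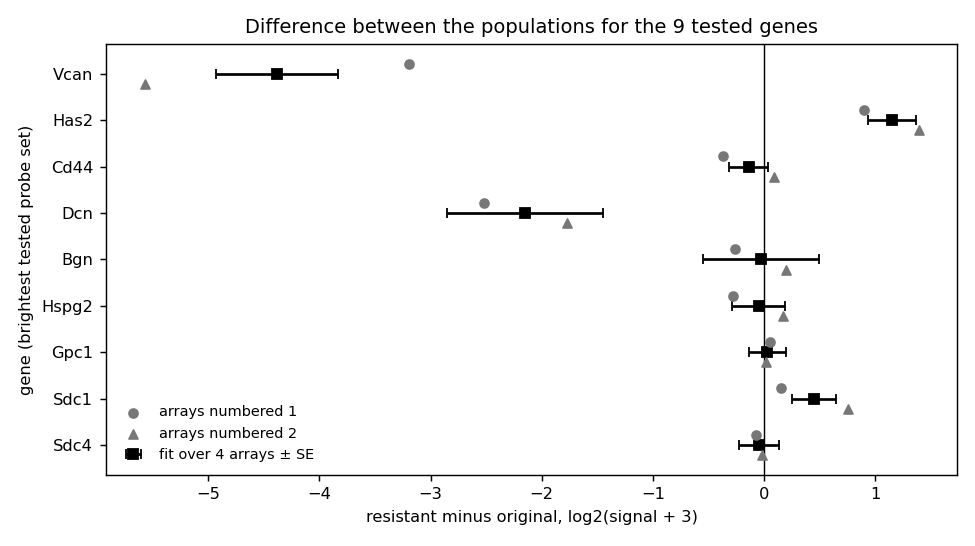
Resistant minus original on the scale log2(signal + 3) for the brightest tested probe set of each of the 9 genes. Squares with bars are the fit over 4 arrays ± SE, circles are the difference between the arrays numbered 1 and triangles between those numbered 2. Vcan (-4.38) and Dcn (-2.15) lie to the left and Has2 (1.15) and Sdc1 (0.45) to the right, with both array numbers on 1 side of 0. Gpc1 and Sdc4 lie at 0.03 and -0.05, also with both array numbers on 1 side of 0.

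Decorin, biglycan and lumican are small leucine-rich proteoglycans that bind collagen fibrils and growth factors. Dcn read 729.1 and 136.7 on the original arrays, against 124.9 and 37.9 on the resistant arrays. The groups did not overlap, but original 2 exceeded resistant 1 by little, and within each population the array numbered 1 was several times brighter, 5.33 times in the original and 3.30 times in the resistant population. The means were 432.9 ± 419 and 81.4 ± 61.5 (SD, n = 2 per group), and the log2 difference was -2.15 ± 0.704 (SE), which that fit did not call. Between arrays of the same number it was -2.52 and -1.77. Single arrays moved it widely, to -0.95 without original 1, -3.34 without original 2, -2.97 without resistant 1 and -1.32 without resistant 2.

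Bgn followed the array number and not the population. Its brightest probe set, 1416405_at, had 192.8 and 64.5 in the original population, against 161.1 and 74.8 in the resistant pool, a log2 difference of -0.03 ± 0.524 (SE). The array numbered 1 was brighter at all 3 probe sets in both populations, by 2.99 to 4.51 times in the original and 2.15 to 9.55 times in the resistant population. The spread within each population thus far exceeded the difference between them. Lum, which lies next to Dcn in the gene table, had 14.9 and 5.7 on the original arrays, against 1.5 and 2.8 on the resistant arrays. All 4 signals of Lum are under the filter, so the order of the arrays is no measured difference. Kera, the keratocan gene next to Lum, and Epyc, the epiphycan gene of the same leucine-rich family, were also dim on every array, at 1.0 to 2.6 and 0.7 to 11.4.

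Such a split by array number was uncommon over the whole array. Of all 13576 tested probe sets 117, or 0.862%, were at least 2 times brighter on the same array number in both populations, and so were 5 of the 18 tested probe sets of the genes described here. These 5 were the probe sets of Dcn (1449368_at), Bgn (1416405_at and 1448323_a_at), Vcan (1421694_a_at) and Sdc4 (1417654_at), which belong to 4 genes. All 5 have mean signals under 500, as do 8 of the 18, and among all tested probe sets under 500 the share was 1.32%. Dcn and Bgn were brighter on the arrays numbered 1, and these probe sets of Vcan and Sdc4 on those numbered 2. The resistant signals of Vcan at 1421694_a_at, 1.9 and 21.3, both lie under the filter. The brightest Vcan probe set did not split this way, with 270.1 and 457.9 in the original population, against 26.9 and 6.7 in the resistant pool. The split was looked for after these values were seen. The spiked BioB, BioC and BioDn controls also differed by array number, and their part in the split was not tested.

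**Figure D3:**
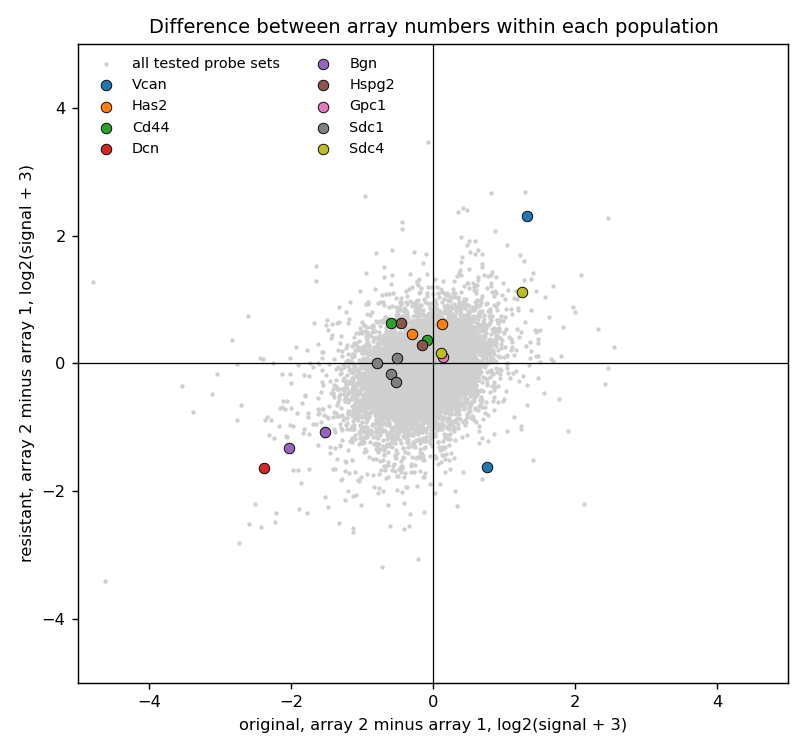
Array 2 minus array 1 on the scale log2(signal + 3), with the original population on the horizontal and the resistant pool on the vertical axis, for all 13576 tested probe sets (grey) and the 18 of the genes described here (coloured by gene). Dcn and Bgn lie at the lower left, brighter on array 1 in both populations, and 1 probe set each of Vcan and Sdc4 lies at the upper right, while the brightest probe set of Vcan lies at the lower right.

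Perlecan, the large heparan sulfate proteoglycan of basement membranes, overlapped between the populations. Hspg2 had 324.3 and 288.5 in the original population, against 266.9 and 325.8 in the resistant pool at 1418669_at, a log2 difference of -0.05 ± 0.236 (SE). At 1418670_s_at, whose suffix marks probes that can bind transcripts of more than 1 gene, it had 183.8 and 134 against 154.9 and 242.4. The fitted differences of the probe sets had opposite signs, -0.05 and 0.30, each within the spread of its arrays.

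Gpc1, a heparan sulfate proteoglycan held to the membrane by a lipid anchor, had the narrowest range over the 4 arrays of the 9 brightest probe sets. Its 1 probe set, 1417389_at, had 4639.3 and 5073.3 in the original population, against 4809.4 and 5136.7 in the resistant pool, a log2 difference of 0.03 ± 0.162 (SE). The difference was 0.05 between the arrays numbered 1 and 0.02 between those numbered 2. Gpc1 was thus at nearly the same signal on each array, with the populations overlapping.

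Syndecan-1, the transmembrane heparan sulfate proteoglycan of epithelial cells, had 4 probe sets, and all 4 were higher on both resistant arrays. The brightest, 1437279_x_at, had 2143.4 and 1499.4 in the original population, against 2380.7 and 2530.7 in the resistant pool. Its suffix marks probes that may bind unrelated transcripts, but 1415943_at, which carries no such mark, had a similar spread, with 2040.8 and 1339.3 against 2676.3 and 2377.1. The log2 differences of the 4 probe sets ran from 0.43 to 0.61, and that of the brightest was 0.45 ± 0.197 (SE). None passed. Original 2 was the lowest array at every probe set, and between arrays of the same number the brightest probe set differed by 0.15 for number 1 and 0.75 for number 2. Without original 2 the difference of the brightest probe set was 0.20, and without original 1 it was 0.71. At 1448158_at the difference for number 1 was 0.03, with signals of 826 and 843.5.

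The promoter window of Sdc1 lies at chr12:8771146-8771445 on the plus strand (GRCm38.p6, RefSeq). It is shown beside that of Vcan because the signals of these genes lay on opposite sides of the original population, and capitals again mark the motifs. Sdc1 was not called, and Has2, with the larger difference, had no window.
Sdc1: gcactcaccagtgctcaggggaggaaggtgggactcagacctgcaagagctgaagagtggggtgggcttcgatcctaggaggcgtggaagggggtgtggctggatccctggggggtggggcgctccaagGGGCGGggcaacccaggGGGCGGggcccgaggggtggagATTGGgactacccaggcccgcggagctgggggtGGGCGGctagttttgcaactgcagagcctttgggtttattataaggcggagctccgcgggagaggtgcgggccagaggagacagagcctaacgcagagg
It holds GGGCGG at 121, 104 and 49 bases before the start and the complement of CCAAT at 82 bases before it, with no match to the other motifs. Both windows hold the same kinds of motif, but GGGCGG and CCAAT are common (35.7% and 37.4% of all windows), so nothing is read from this. Its GC content is 66.3%. The RefSeq table held windows for 6 of the 10 genes, and of these Cd44, Bgn, Hspg2 and Sdc4 had 1, 3, 5 and 4 matches to GGGCGG, and Bgn also had 1 to CTTTGA.

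Syndecan-4, which sits in focal adhesions, did not separate the populations. Sdc4 had 849.1 and 915.1 in the original population, against 807.7 and 903 in the resistant pool at 1448793_a_at, a log2 difference of -0.05 ± 0.180 (SE). The dimmer probe set 1417654_at had 153.3 and 367.3 against 146.9 and 322.3. At the latter the array numbered 2 was 2.40 times brighter in the original and 2.19 times brighter in the resistant population, a split that the brighter probe set did not have (1.08 and 1.12 times). The probe sets of Sdc4 thus disagreed between arrays but not on the populations, with log2 differences of -0.05 and -0.12.

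The other genes of proteoglycans, hyaluronan and glycosaminoglycan chains were counted from 5 lists drawn up by function. Of 119 genes 95 were on the array and 47 were tested. None of the 47 passed in limma with Benjamini-Hochberg adjustment, against 0.319% of all tested genes. At an unadjusted limma p under 0.05 there were 2 higher, Csgalnact1 and Chst12, and 1 lower, Stab1. The share of all tested genes at that level was not taken, so nothing is read from this count. The arrays did not overlap for 7 higher and 5 lower genes, against 19.9% and 17.3% of all tested genes. The median log2 difference was 0.01, against 0.02 over all 7514 genes, with 24 genes above and 23 below 0.

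Of 18 other secreted proteoglycans only 3 were tested, and 0 passed (median 0.03, 2 above 0 and 1 below). Agrn (agrin, a heparan sulfate proteoglycan of basement membranes) had 311.9 and 199.5 in the original population, against 375.2 and 348.1 in the resistant pool, a log2 difference of 0.53 ± 0.266 (SE). The aggrecan family members Acan, Ncan and Bcan, which bind hyaluronan as versican does, had signals of 2.7 to 35.9 on all arrays. Vcan was thus the only member of that family with a tested probe set. Hapln1, the link protein gene beside Vcan in the gene table, had 1.5 to 6.7. Of the other cell-surface proteoglycans 7 of 9 were on the array, 4 were tested and 0 passed (median 0.06). Sdc2 had 1518.1 and 984.2 in the original population, against 1694.3 and 1615 in the resistant pool, a log2 difference of 0.43 ± 0.215 (SE). Both Agrn and Sdc2, like Sdc1, were lowest on original 2, and without that array their log2 differences were 0.21 and 0.12. Between the arrays numbered 1 they were 0.26 and 0.16, and between those numbered 2 they were 0.79 and 0.71.

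Of 24 other hyaluronan genes 20 were on the array, 5 were tested and 0 passed (median -0.08, 1 above 0 and 4 below). Stab1, a scavenger receptor placed in this list, had 233.7 and 201.3 in the original population, against 109 and 146.9 in the resistant pool. Its log2 difference was -0.76 ± 0.292 (SE; limma adjusted p = 0.574). Hmmr, an intracellular and cell-surface hyaluronan-binding protein, overlapped, with a log2 difference of -0.08. The hyaluronidase gene Hyal2 had -0.07 and overlapped as well.

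The enzymes that build and sulfate the chains were the best covered, with 36 of 46 genes on the array, 24 tested and 0 passing (median 0.04, 14 above 0 and 10 below). Csgalnact1, which starts chondroitin sulfate chains, had 71.3 and 55.5 in the original population, against 191.6 and 137.7 in the resistant pool. Its log2 difference was 1.33 ± 0.353 (SE; limma adjusted p = 0.288). Chst12, a chondroitin 4-O-sulfotransferase, had 244.7 and 193.7 against 361.9 and 413.1, a log2 difference of 0.82 ± 0.242 (SE; limma adjusted p = 0.369). The lowest resistant array of each lay above its highest original array. Extl2 and Glce, which act on heparan sulfate chains or their linker, were the 2 lower without overlap, with log2 differences of -0.36 ± 0.205 (SE) and -0.11 ± 0.184 (SE). Ext1, an enzyme of the heparan sulfate polymerase, had 3808.3 and 2808.5 against 4058.2 and 4341.5 (0.36 ± 0.186, SE, and 0.14 without original 2).

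Among genes that cleave core proteins or chains, 14 of 22 were on the array, 11 were tested and 0 passed (median -0.04, 5 above 0 and 6 below). Ids, the lysosomal iduronate sulfatase, was the 1 gene lower without overlap, at -0.35 ± 0.296 (SE), and -0.24 without original 2. Adamts4, a protease that cuts aggrecan and versican, overlapped and is named because its profile resembles that of Dcn, a choice made after its values were seen. It had 1192.5 and 430.5 in the original population, against 570.6 and 213.4 in the resistant pool, with the array numbered 1 brighter by 2.77 and 2.67 times. Its log2 difference was -1.03 ± 0.491 (SE; limma adjusted p = 0.701), and it was -1.76 without original 2 and -0.30 without original 1. Adamts1, another protease that cuts versican, had 46.6 to 62.8 on all arrays.

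**Figure D4:**
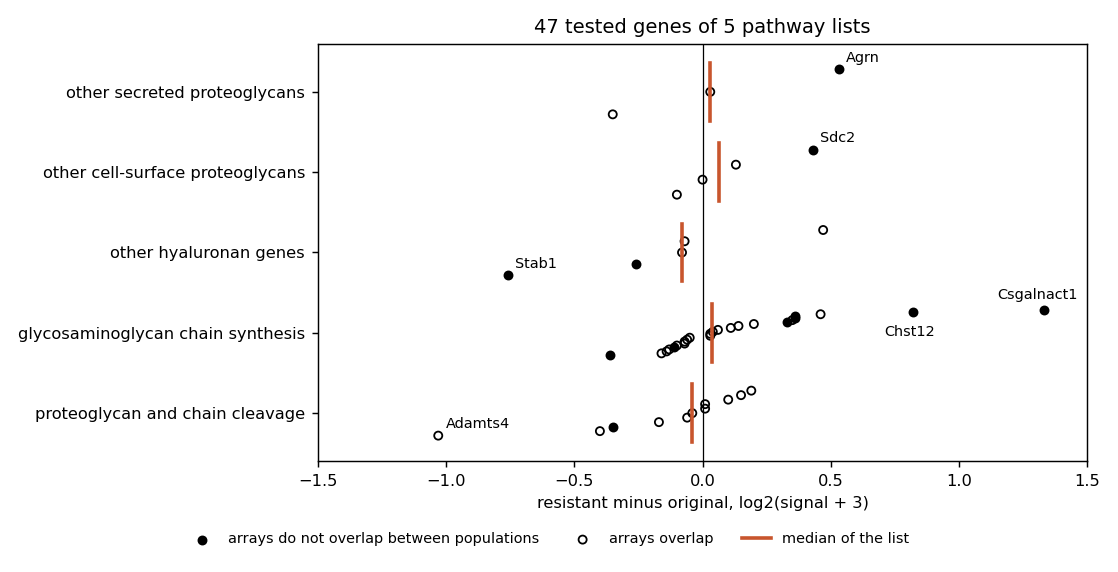
Resistant minus original on the scale log2(signal + 3) for the 47 tested genes of the 5 lists, 1 point per gene, filled where the arrays of the populations do not overlap, with a bar at each list's median. The medians lie between -0.08 and 0.06, and the points farthest out are Csgalnact1 (1.33), Chst12 (0.82), Stab1 (-0.76) and Adamts4 (-1.03).

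Versican, decorin and Has2 are typical of mesenchymal cells, so markers of other cell types are given beside them. Of 8 fibroblast markers 6 were tested, with 3 higher and 1 lower without overlap. The 3 higher were Col1a1 (0.99), Col3a1 and Postn (1.88, and 0.84 without original 2), and the lower was Col1a2. The summed signal of the 8 was 6367.0 to 7503.0 in the original and 6902.8 to 9788.4 in the resistant population. Much of that sum was Col1a2, the marker with the highest mean signal of them, at 4171.7 and 4416.0 against 2427.3 and 3228.5. Col3a1, a fibrillar collagen chain, was the 1 of them called, with a log2 difference of 1.99 ± 0.322 (SE; limma adjusted p = 0.0477). Over the alternatives tried, its limma adjusted p was as high as 0.317, without a variance trend. With the replicate number as a block it was 4.17e-22, in a fit that leaves 1 residual degree of freedom. Col1a2 had a difference of -0.62 ± 0.183 (SE). Vcan and Dcn were lower, as was Col1a2, while the median of the 6 tested fibroblast markers was 0.85. Of these, Pdgfra and Pdgfrb overlapped, at 0.72 and 0.44. With 1 array left out they ran from -0.20 to 1.63 and from -0.02 to 0.90. Thy1 and Fap were dim at 5.8 to 21.9. Of 7 basal and myoepithelial markers 2 were tested, Acta2 and Krt14, both higher without overlap, while Krt5 was at 34 to 45. The difference of Acta2 was 0.32 between the arrays numbered 1 and 3.26 between those numbered 2, and 0.97 without original 2. That of Krt14 was 0.17 and 2.00, and 0.23 without resistant 2. Krt14 had 31.3 and 28.8 in the original population, against 35.7 and 124.2 in the resistant pool. Only resistant 2 lay above the filter of 51.9, so Krt14 was tested only because of that array. The summed signal of the 7 was 416.3 to 1009.0 and 1317.3 to 3091.6, most of it from Acta2 (932.7 and 295.2 against 1164.6 and 2854.7). The sums of 5 leukocyte markers were 154.8 to 177.6 and 175.1 to 188.0, those of 4 endothelial markers 41.6 to 55.5 and 32.7 to 37.5, and those of 2 adipocyte markers 17.6 to 32.1 and 22.1 to 28.8. Ptprc, the defining leukocyte gene, was at 7.4 to 14.8, and Pecam1, that of endothelium, at 2.7 to 22.3. The part of the fibroblast and myoepithelial genes in the differences of Vcan, Dcn and Has2 was not tested.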

How the data were processed

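Per the submitters' processing notes the authors used MAS5, and each deposited value is a linear MAS5 intensity for 1 probe set on 1 array, of a software version not stated in those notes. Of 22690 probe sets 64 were controls and took no part. By the platform annotation 20380 had 1 symbol, 691 had several and 1555 had none. Probe sets with several symbols named no gene. Of the former, 20351 matched the GRCm38.p6 gene table by identifier, which served only for names and neighbours. The values carry no genome build.

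A common trimmed mean (2% from each end) was set on the arrays before taking log2(signal + 3). Probe sets with a mean signal under the 40th percentile were left out. The difference of resistant minus original was estimated in limma 3.58.1 under R 4.3.3 (lmFit and trended eBayes, 2 residual degrees of freedom), with Benjamini-Hochberg adjustment over all 13576 tested probe sets. The fit was also run on simulated data with independent normal noise. That simulation had neither the shared deviations of same-numbered arrays nor the signal floor, so it does not bear on either. All 10 genes were named whatever their values, with called genes of the 5 lists, the 2 highest and 2 lowest of each list among those without overlap, and the 5 genes closest to Vcan; other names were chosen after their values were seen. The genes and lists were chosen with earlier results of these data known. The alternatives tried were other normalisations, pseudocounts, filters, variance models and gene summaries, the replicate number as a block, and leaving out each array. For arrays their number limits the precision.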

Additional observations from a re-analysis of the deposited data

How the results depend on the processing

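The whole table gave 31 called probe sets, and 8 with quantile normalisation, 5 without the filter on dim probe sets, 11 with a filter at the 60th percentile and 5 without a variance trend. It gave 65 to 164 when 1 array was left out and 740 with the replicate block. Of the 9 tested genes 1 was called, and 0 with quantile normalisation, without the filter, with a filter at the 60th percentile (where Vcan was not measured) or without a variance trend. The count was 2 where the probe sets of a gene were averaged (Vcan and Has2), and 3 with the replicate block (Vcan, Has2 and Dcn). No share of all genes is given for either, and the block called 740 probe sets over the whole table. Nothing is therefore read from the added calls of Has2 and Dcn. Leaving out 1 array leaves a single array in 1 population, and the spread then comes from the other population alone. No calls are therefore given for those fits, only the differences. These counts are a description, since the genes were chosen with the contrast known. Of the other pathway genes 0 were called, and 3 with the replicate block (Csgalnact1 and Chst12 higher, Adamts4 lower). The cause of these changes was not tested. The deviations of same-numbered arrays correlated at 0.35 across probe sets, which with 2 pairs does not settle whether the numbers pair the samples, and the block leaves 1 residual degree of freedom. A filter on the mean log2 signal, chosen after seeing the data, gave 23 probe sets and the same 1 gene, Vcan. Vcan, Has2, Dcn and Sdc1 kept their sign under every alternative that measured them, Vcan between -5.19 and -2.38, Has2 between 0.84 and 1.45, Dcn between -3.34 and -0.95 and Sdc1 between 0.20 and 0.71. The signs of Cd44, Bgn, Hspg2, Gpc1 and Sdc4 turned under 1 or more alternatives. Signals near the floor limit the size given for Vcan.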
